A study of Arabidopsis thaliana with 6 samples.

Results

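The xyloglucan endotransglucosylase/hydrolase (XTH) family was taken as the 33 Arabidopsis genes XTH1 to XTH33, matched by gene identifier to the deposited tables, a rule that uses no measured value. All 33 were found among the 37336 genes listed. By published clades, 11 belong to group I (XTH1 to XTH11), 15 to group II (XTH12 to XTH26), 2 to group IIIA (XTH31 and XTH32) and 5 to group IIIB (XTH27 to XTH30 and XTH33).

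The study asked which transcripts change in the quiescent centre (QC), the slowly dividing organizer of the root stem cell niche, when the R2R3-MYB factor BRAVO is lost. RNA was measured in 6 libraries from 5-day-old Col-0 seedlings, 3 of the wild type (WT) and 3 of the mutant bravo-2, which the study treats as a knockout, and all of them carried the reporter pWOX5:GFP. Root protoplasts were sorted for GFP and their RNA was amplified before sequencing, so the profile is that of whatever the WOX5 promoter marked and the sort let through. The labels do not say whether libraries of a genotype came from separate cultures, and p-values measure only the spread between these libraries, which may be technical.

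XTH enzymes act in the cell wall on xyloglucan, the hemicellulose that coats cellulose microfibrils. They cut a xyloglucan backbone and join the cut end to another chain, which lets a wall be remodelled while it grows, and group IIIA members are known instead for hydrolysing the chain. Xyloglucan itself is built in the Golgi by CSLC glucan synthases and XXT xylosyltransferases, decorated with further sugars, and trimmed after secretion by glycosidases.

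The catalytic stretch of the family is shown first, because the closely related copies discussed below differ in it by a few bases. It did not decide membership, which went by gene identifier. It was searched for in the TAIR10.1 RefSeq coding sequences, and was found in 32 members (not in XTH11) as 9 unbroken codons. The capitals mark its 3 acidic codons, of which the outer pair encode the catalytic glutamates. The 6 members shown lie at chr5:23301145-23301171 on the minus strand (XTH12, AT5G57530), chr5:23303645-23303671 minus (XTH13, AT5G57540), chr4:13130780-13130806 plus (XTH14, AT4G25820), chr4:1416538-1416564 plus (XTH9, AT4G03210), chr2:385891-385917 plus (XTH27, AT2G01850) and chr1:11576260-11576286 plus (XTH30, AT1G32170).
XTH12: gatGAGattGATttcGAGttcttgggt
XTH13: gatGAAatcGACttcGAGttcttgggt
XTH14: gatGAGattGACttcGAGtttttggga
XTH9: aacGAAttcGATtttGAGttcttaggg
XTH27: gatGAGataGATtttGAGtttcttggt
XTH30: gacGAGttaGACataGAGtttctaggg
The 32 runs were all different at the base level. Even so, 22 of them encoded the same 9 residues, 4 differed from these at 1 residue and 6 at 2, XTH9 and XTH30 among the latter. The stretch lay in exon 2 of 14 genes and in exon 3 of 18.

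Several members sit side by side in the genome. On chromosome 5, XTH12 (23300321 to 23301689), XTH13 (23302787 to 23304095), XTH25 (23304782 to 23306440) and XTH22 (23307006 to 23308680) form a run on the minus strand of TAIR10.1, interrupted by AT5G57535. On chromosome 4, XTH23 (13128394 to 13129927) directly precedes XTH14 (13130291 to 13131860), and XTH24 (14819192 to 14820595) is followed by XTH18 (14825757 to 14827211) and XTH19 (14828712 to 14830224). The coding sequences of XTH17 and XTH18 were 92.2% identical, those of XTH12 and XTH13 89.7%, and those of XTH18 and XTH19 89.2%. Here and below, identity is over aligned bases, with gaps left out. Copies this close can share reads, and RSEM divides such reads by estimate. For XTH17, XTH18 and XTH19 the posterior SD of the count was at most 0.124% of the count, and for XTH12 and XTH13 it was at most 0.00103%. XTH15 (AT4G14130) was the uncertain one: it overlaps AT4G14120 on the opposite strand, its count was fractional in all 6 libraries, and its posterior SD reached 3.84%. Whether strand was used in the counting is not given in the sources used here.

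The 300 bases before the annotated start are shown for XTH12, XTH13, XTH14 and XTH26, the members whose levels moved most between libraries. They are RefSeq sequence of TAIR10.1, at chr5:23301690-23301989 (minus strand), chr5:23304096-23304395 (minus), chr4:13129991-13130290 (plus) and chr4:14243990-14244289 (plus). The capitals mark the runs of at least 10 bases that the windows of XTH13 and XTH14 have in common on the same strand. Runs of that length shared by other pairs are not in capitals: XTH12 and XTH13 share TTTATATGTA, CATAATTCATT and TTTGTTTATA, which 0.66%, 0.113% and 1.01% of all such windows hold, and XTH14 and XTH26 share CATACAAAGTT (0.0328%).
XTH12: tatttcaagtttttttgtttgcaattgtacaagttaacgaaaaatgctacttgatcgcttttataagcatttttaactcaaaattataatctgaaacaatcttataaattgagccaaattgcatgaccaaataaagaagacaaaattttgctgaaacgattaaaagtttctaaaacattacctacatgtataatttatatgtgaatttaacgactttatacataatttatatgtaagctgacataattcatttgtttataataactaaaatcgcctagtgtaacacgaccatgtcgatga
XTH13: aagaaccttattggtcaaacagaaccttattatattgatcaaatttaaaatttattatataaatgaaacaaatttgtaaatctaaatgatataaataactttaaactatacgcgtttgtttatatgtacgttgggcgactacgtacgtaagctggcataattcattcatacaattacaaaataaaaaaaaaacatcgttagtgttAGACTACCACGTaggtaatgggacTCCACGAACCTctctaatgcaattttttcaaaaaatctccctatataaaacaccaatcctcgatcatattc
XTH14: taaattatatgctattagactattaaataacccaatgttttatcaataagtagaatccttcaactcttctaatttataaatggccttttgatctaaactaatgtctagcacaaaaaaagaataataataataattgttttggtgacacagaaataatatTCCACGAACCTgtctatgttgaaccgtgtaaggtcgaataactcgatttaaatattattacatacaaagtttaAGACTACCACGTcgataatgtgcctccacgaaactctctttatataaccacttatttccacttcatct
XTH26: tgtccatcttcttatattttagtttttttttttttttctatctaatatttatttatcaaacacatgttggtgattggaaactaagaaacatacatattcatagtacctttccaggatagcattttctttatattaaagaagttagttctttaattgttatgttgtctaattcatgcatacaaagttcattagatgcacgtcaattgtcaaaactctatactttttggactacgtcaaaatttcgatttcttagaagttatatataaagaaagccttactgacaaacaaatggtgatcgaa
XTH13 and XTH14 lie on different chromosomes. The run AGACTACCACGT, in capitals in both, was present on either strand in 2 of 27443 such windows of the genome (0.00729%), namely these 2, and TCCACGAACCT in 4 (0.0146%). Both runs were picked out after the sequences had been compared, and they are a description, not a site of any factor. With gaps left out, the windows of XTH13 and XTH14 were 72.0% identical over 246 aligned bases. XTH12 and XTH13, whose coding sequences are closer, gave 64.7% over 255 bases, and XTH12 and XTH14 gave 61.9% over 270.

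Known motifs were searched for in the same windows on both strands. The root hair element, known from genes of hair-forming cells, matched 0 of the 33 XTH windows and 0.915% of all windows. The G-box CACGTG matched 0 of 33, against 7.09% of all windows. The brassinosteroid response element, spelt CGTGTG or CGTGCG, matched 4 of 33 (XTH2, XTH8, XTH23 and XTH25), against 7.64%. TATAAA matched 18 of 33, against 52.9%. Overlaps between motifs were not removed.

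The 6 libraries held from 10990221 to 14425263 estimated counts. Levels are given as CPM, counts scaled to a common library size after TMM correction for library composition. The least taken as shown was 3 counts, which equalled 0.208 to 0.273 CPM before that correction. BRAVO (AT5G17800) itself measured 13.3, 37.5 and 60.5 CPM in the WT libraries (always given as replicates 1, 2 and 3) against 13.8, 10.3 and 11.8 CPM in the mutants, so its lowest WT library lay inside the range of the mutants. The tables do not show which part of the transcript was read, so this does not check the labels. One library stood apart. In bravo-2 replicate 1 the 10 root hair markers summed to 26 CPM, with 2 of the 10 (RHD6 and RSL2) at or under 3 counts, while in the other 5 libraries they summed to 2020 to 6760 CPM. The fall there was not confined to root hair markers: the 2 non-hair epidermis markers summed to 4.79 CPM, against 19.2 to 69.5 CPM elsewhere. The QC marker WOX5 was highest there, at 444 CPM against 80.3 to 372 CPM elsewhere. Fold changes are therefore also given without this library.

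Of the 33 members, 20 reached a mean of 4 CPM (before the TMM correction) in at least 1 genotype and were tested with all other such genes. The other 13 did not. Among the latter, XTH1, XTH2, XTH6 and XTH25 had no count in any library, which allows up to 0.208 to 0.273 CPM before the TMM correction. XTH3 had 3 counts in each of 2 libraries, XTH7 had 1 count in a single library, XTH29 had 3 counts and XTH10 had 11 counts, both in WT replicate 1 alone. XTH11 ranged from 2 to 16 counts. XTH20, known from mature vascular tissue, had no count in 3 libraries and at most 26. XTH24 (MERI5B) ranged from 0.643 CPM in bravo-2 replicate 1 to 8.66 CPM in bravo-2 replicate 3. XTH31, a hydrolase known for its role in aluminium sensitivity, ranged from 0.0714 CPM to 4.82 CPM, the latter in WT replicate 1, and XTH32 ranged from 0 to 1.5 CPM, so group IIIA was barely detected.

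Per length, in TPM as deposited (a length-corrected share of all transcripts), XTH14 was the most abundant member in WT, with 484 ± 140 TPM (SD, n = 3). XTH17 followed with 359 ± 184 TPM, XTH18 with 247 ± 118 TPM, XTH12 with 227 ± 53.2 TPM, XTH13 with 201 ± 43.1 TPM and XTH19 with 136 ± 75.7 TPM, all of group II. The most abundant member outside group II was XTH8, with 112 ± 82.1 TPM. XTH4 (68.1 ± 15.7 TPM) and XTH9 (65.6 ± 31.5 TPM) came next, and at the other end of the tested genes stood XTH28 (26.1 ± 11.2 TPM), XTH16 (10.9 ± 5.46 TPM) and XTH33 (10.5 ± 5.40 TPM). Neighbours in this order overlapped in their WT ranges throughout the 20 tested members except at 1 step, from XTH28 (lowest library 18.1 TPM) to XTH16 (highest library 15.2 TPM).

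Taken as a sum, the family made up 2860, 1850 and 2150 TPM (WT) against 461, 1160 and 1880 TPM (bravo-2). The ranges overlapped through bravo-2 replicate 3 alone. Group II supplied 76.4% to 86.1% of the summed XTH level in the WT libraries and 84.4% in bravo-2 replicate 3, but 61.9% in bravo-2 replicate 2 and 21.4% in bravo-2 replicate 1. In that last library the leading members were XTH9 (23.0%), XTH5 (15.1%) and XTH28 (14.7%), whereas XTH14 or XTH17 led in every other library. In a sorted population, fewer cells of a type and less RNA per cell cannot be told apart in such values.

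**Figure D1:**
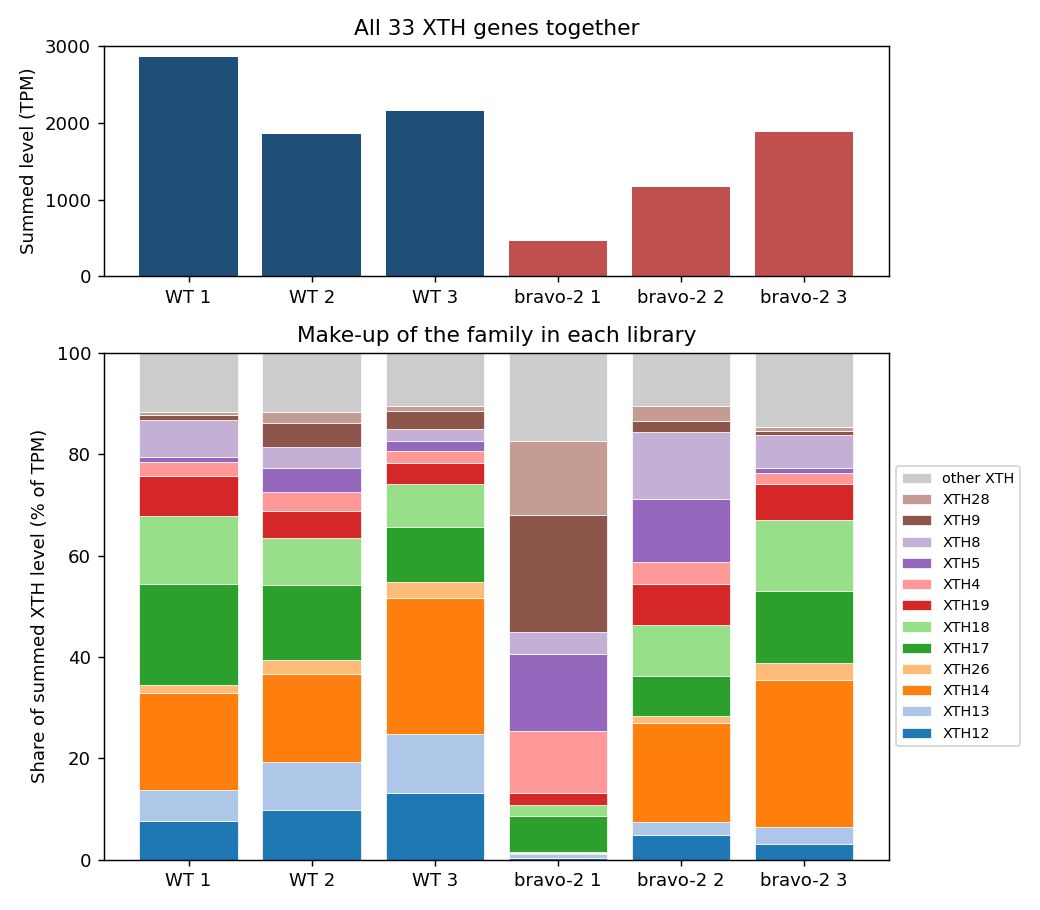
Summed level of all 33 XTH genes (upper bars, TPM) and the share of that sum held by single members (lower stacked bars, % of TPM) in each library, WT in blue and bravo-2 in red above. bravo-2 replicate 1 has the smallest sum, 461 TPM, and 21.4% of it comes from group II (XTH12, XTH13, XTH14, XTH17, XTH18, XTH19 and XTH26 of the genes coloured), against 76.4% to 86.1% in WT.

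Between genotypes, the XTH genes as a whole leaned lower in bravo-2, and none passed the test. Of the 20 tested, 18 had a negative log2 fold change (bravo-2 over WT) and 2 a positive one (XTH5 and XTH28), where 45.7% of all genes tested were lower. Their median log2 fold change was -0.77, against 0.04 over the 15739 genes tested. None of the 20 had an adjusted p under 0.05 by the quasi-likelihood test of edgeR, adjusted after Benjamini and Hochberg over the whole table, and neither did any other gene (0.0% called); each tested member had an adjusted p of 1.0. At an unadjusted p under 0.05 there were 2 members, XTH13 and XTH16, both lower in bravo-2, where 0.381% of all genes tested were lower at that level. In 6 members every WT library lay above every bravo-2 library (XTH4, XTH12, XTH13, XTH16, XTH21 and XTH27), which was 30% of those tested, while 1.99% of all genes tested showed this. XTH16 and XTH33, both among the 18 lower, were in the test through their WT level alone, as the filter used CPM before the TMM correction. XTH16 is also among the 2 members and among the 6 just named, so it gives none of these counts independent support.

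Without bravo-2 replicate 1 the lean was smaller: 15 of 21 members tested were lower and 6 higher, with a median of -0.32, against 0 over all genes in that fit. The share of all genes lower was not computed for fits with a library left out. The number with every WT library above the remaining pair of bravo-2 libraries was then 7 of 20, XTH9 having joined the 6, where 5.52% of all genes tested showed this. Leaving out WT replicate 1 instead gave 14 lower and 6 higher, with a median of -0.59, against 0.06 over all genes. Without bravo-2 replicate 3, the mutant library with the most root hair marker RNA, the median was -2.04, against 0.07 over all genes. Much of the spread was between libraries of 1 genotype: 14 of the 20 members had a dispersion, edgeR's measure of the variance beyond counting, above the 80th percentile of all genes tested.

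**Figure D2:**
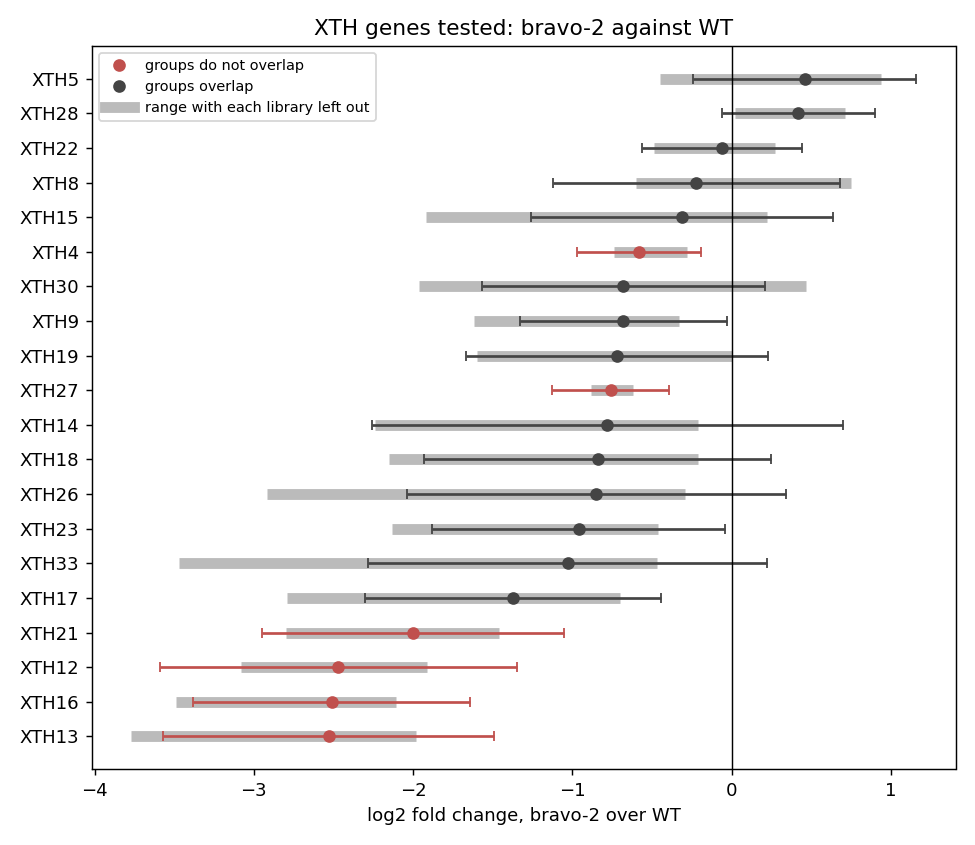
log2 fold change of each tested XTH gene (bravo-2 over WT) from edgeR, with bars of 1 SE; grey bands span the values with each library left out in turn, and red points are genes whose WT and bravo-2 libraries do not overlap. The 6 red genes stay below 0 under every omission, which their lack of overlap all but fixes in advance, so it is no further support. The bands of XTH5, XTH8, XTH15, XTH22 and XTH30 reach both sides of 0 and that of XTH19 ends at 0.00.

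The chromosome 5 neighbours XTH12 and XTH13 were the abundant members that separated the genotypes. XTH12 measured 180, 119 and 212 CPM (WT) against 1.00, 39.6 and 51.3 CPM (bravo-2). XTH13 measured 140, 113 and 180 CPM (WT) against 1.57, 19.8 and 53.8 CPM (bravo-2). For both genes the highest mutant library lay well below the lowest WT library, and bravo-2 replicate 1 was near the detection floor. The log2 fold change of XTH12 was -2.47 (SE 1.12, unadjusted p = 0.0595 and adjusted p = 1.0 by edgeR), and that of XTH13 was -2.53 (SE 1.04, unadjusted p = 0.0425 and adjusted p = 1.0). A two-sided exact permutation test on the 6 libraries gave p = 0.1 for each, the smallest value that 3 against 3 allows. Every gene whose groups do not overlap must get this value. Here and for the members below it therefore restates the lack of overlap and adds no support. Without bravo-2 replicate 1 the log2 fold changes were -1.91 (SE 0.53) for XTH12 and -1.98 (SE 0.59) for XTH13, with adjusted p = 1.0 for each by edgeR.

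XTH14 and XTH26 (AT4G28850), both known for expression in root hairs, did not separate the genotypes. XTH14 measured 466, 218 and 438 CPM (WT) against 0.643, 159 and 491 CPM (bravo-2), so that its lowest and its highest library were both mutant. XTH26 measured 39.6, 33.1 and 51.3 CPM (WT) against 0.571, 10.4 and 57.9 CPM (bravo-2). In each gene bravo-2 replicate 3 lay above all WT libraries and bravo-2 replicate 1 was based on 9 and 8 counts. The log2 fold changes were -0.78 (SE 1.48) for XTH14 and -0.85 (SE 1.19) for XTH26, and without bravo-2 replicate 1 they were -0.21 and -0.29.

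**Figure D3:**
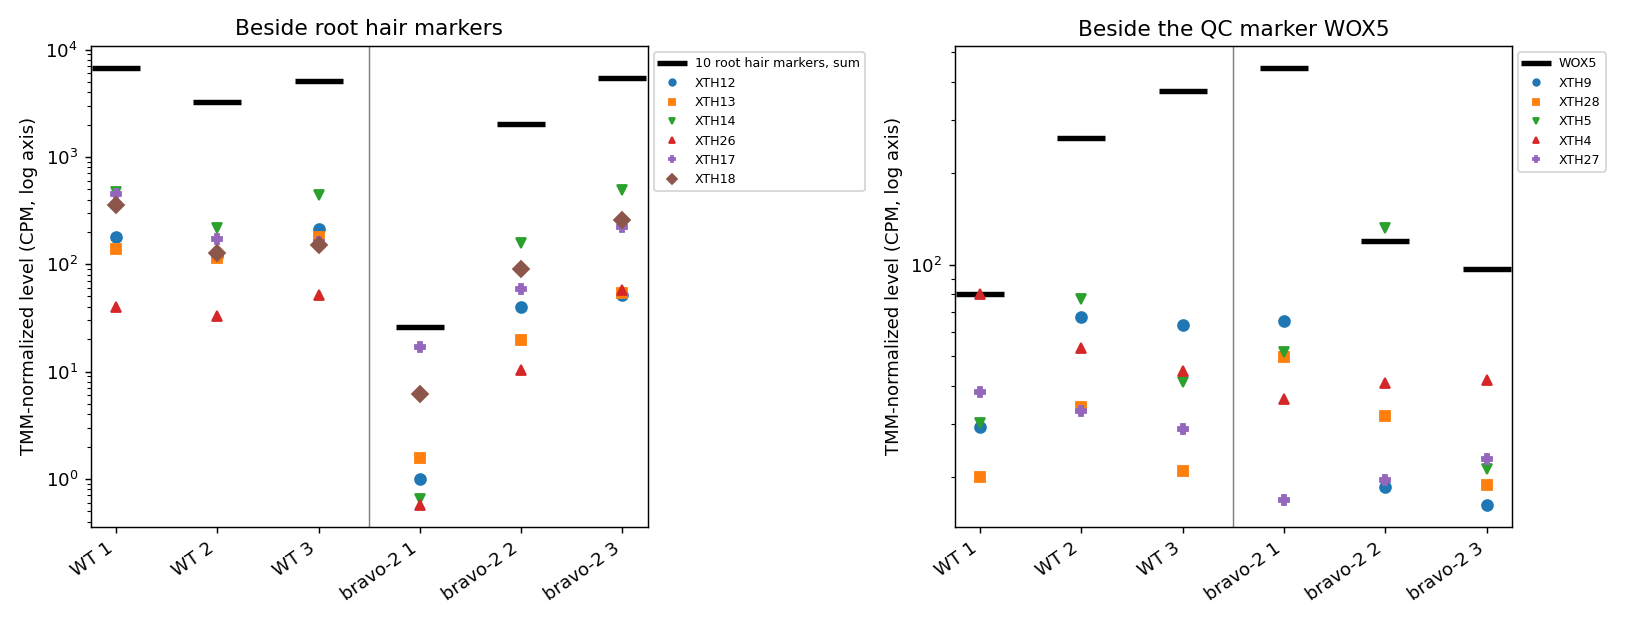
TMM-normalized CPM (log axis) in each library of 6 group II members beside the summed root hair markers (left, black bars) and of 5 members outside group II beside WOX5 (right, black bars); the grey line parts WT from bravo-2. In bravo-2 replicate 1 the marker sum is 26 CPM and XTH12, XTH13, XTH14 and XTH26 lie between 0.571 and 1.57 CPM, while XTH9 is at 65.4 CPM and WOX5 at 444 CPM.

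Root hair markers were lowest in bravo-2 replicate 1, as these 4 genes were, but XTH12 and XTH13 parted from them in bravo-2 replicate 3. The marker sum was 6760, 3240 and 5080 CPM (WT) against 26, 2020 and 5400 CPM (bravo-2). Set against this sum, XTH14 stood at 6.89%, 6.72% and 8.62% of it in WT and at 7.88% and 9.10% in bravo-2 replicates 2 and 3. XTH12 stood at 2.66%, 3.67% and 4.17% in WT, and at 1.96% and 0.950% in bravo-2 replicates 2 and 3. For XTH13 the values were 2.07%, 3.49% and 3.54% in WT, and 0.981% and 0.997% in the same pair of mutant libraries. Thus in bravo-2 replicate 3, where the markers and XTH14 were at or above most WT values, XTH12 and XTH13 remained under all of theirs. In bravo-2 replicate 1 the shares were 3.85% for XTH12, 6.04% for XTH13 and 2.47% for XTH14, inside or above the WT range for the first pair, but they rest on 14, 22 and 9 counts. These ratios were formed after the values had been seen and carry no test, and the part of root hair cells in the fold changes was not tested.

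**Figure D4:**
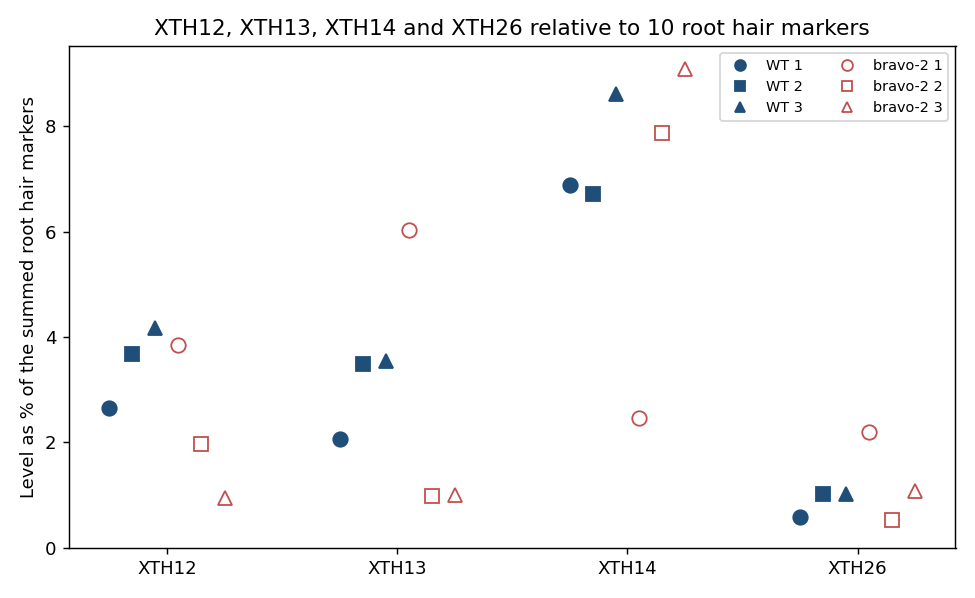
Level of 4 members as a percentage of the summed CPM of 10 root hair markers, 1 point per library (filled, WT; open, bravo-2). XTH12 and XTH13 in bravo-2 replicates 2 and 3 (0.950% to 1.96%) lie below their WT points, XTH14 in those libraries (7.88% and 9.10%) does not, and bravo-2 replicate 1 rests on 8 to 22 counts.

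The closely related root genes XTH17 (AT1G65310), XTH18 (AT4G30280) and XTH19 (AT4G30290) were abundant and variable. XTH17 measured 446, 170 and 162 CPM (WT) against 17.1, 59.0 and 224 CPM (bravo-2), and XTH18 353, 128 and 152 CPM (WT) against 6.14, 90.4 and 258 CPM (bravo-2). XTH19 measured 219, 75.0 and 78.1 CPM (WT) against 7.21, 76.0 and 142 CPM (bravo-2). All 3 were highest in WT replicate 1 and lowest in bravo-2 replicate 1, with bravo-2 replicate 3 above WT replicates 2 and 3, so the genotypes overlapped. Their log2 fold changes were -1.37 (SE 0.93), -0.84 (SE 1.09) and -0.72 (SE 0.95), and -0.88, -0.28 and -0.19 without bravo-2 replicate 1. In bravo-2 replicate 1 these genes kept more counts than XTH14, which had 9, from 86 counts for XTH18 to 239 for XTH17.

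Among the rarer group II members, XTH21 and XTH16 also had all WT libraries above all mutants. XTH21 (AT2G18800), known to be needed for full primary root growth, measured 37.7, 23.9 and 12.9 CPM (WT) against 0.571, 6.65 and 11.5 CPM (bravo-2). Its nearest libraries, WT replicate 3 and bravo-2 replicate 3, were close together. The log2 fold change was -2.0 (SE 0.95, unadjusted p = 0.0708 and adjusted p = 1.0 by edgeR; exact permutation p = 0.1), and -1.46 (SE 0.61) without bravo-2 replicate 1. XTH16 (AT3G23730) measured 11.4, 10.7 and 3.79 CPM (WT) against 1.00, 0.505 and 3.01 CPM (bravo-2). Of the 6 members it alone was lowest in bravo-2 replicate 2, and it rested on 6 to 139 counts. Its log2 fold change was -2.51 (SE 0.87, unadjusted p = 0.0218 and adjusted p = 1.0 by edgeR; exact permutation p = 0.1), and -2.30 (SE 0.98) without bravo-2 replicate 1.

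XTH15, the nearest relative of XTH16 with 81.7% identity in coding sequence, did not share that order. It measured 61.8, 37.8 and 46.8 CPM (WT) against 3.71, 22.3 and 91.8 CPM (bravo-2), with the highest and the lowest library both in the mutant. Its log2 fold change of -0.31 (SE 0.95) turned to 0.22 without bravo-2 replicate 1. The pair XTH22 and XTH23 (AT4G25810) were 82.4% identical in coding sequence. XTH22 (AT5G57560), the touch-inducible TCH4, measured 42.6, 19.3 and 31.4 CPM (WT) against 18.6, 25.9 and 45.2 CPM (bravo-2). Its genotypes overlapped fully and its log2 fold change of -0.06 (SE 0.50) turned to 0.19 without bravo-2 replicate 1. XTH23 measured 35.0, 12.0 and 51.6 CPM (WT) against 2.5, 12.6 and 35.6 CPM (bravo-2) (log2 fold change -0.96, SE 0.92; -0.46 without bravo-2 replicate 1), so the mutants reached into the WT range. The 8 touch and wound response genes summed to 2300, 1200 and 1250 CPM (WT) against 382, 907 and 2280 CPM (bravo-2), and were lowest in the same library as XTH22 and XTH23. Their part in these levels was not tested.

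**Figure D5:**
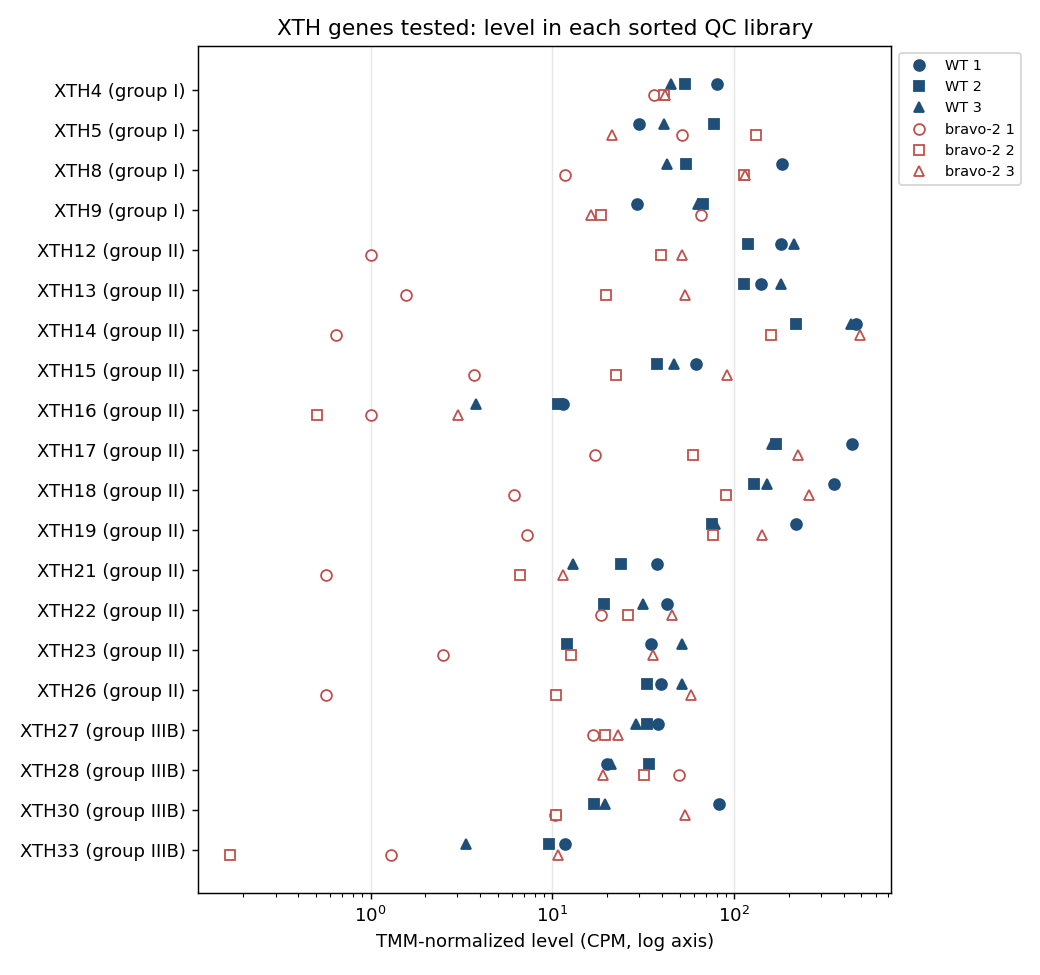
TMM-normalized CPM (log axis) of the 20 tested XTH genes in each library, WT filled and bravo-2 open, with the replicate given by the symbol. bravo-2 replicate 1 (open circles) is the lowest library for 15 of the 20, and XTH9 and XTH28 are among the exceptions.

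Across the tested members, bravo-2 replicate 1 was the lowest library for 15 of 20, where 33.8% of all genes tested were lowest there. WT replicate 1 was the highest library for 10 of 20, where 15.9% of all genes tested were highest there. Of the 5 exceptions, XTH5, XTH9 and XTH28 were lowest in bravo-2 replicate 3, and XTH16 and XTH33 in bravo-2 replicate 2.

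Group I held 4 tested members, with a median log2 fold change of -0.40. XTH4 (AT2G06850) measured 80.1, 53.3 and 44.8 CPM (WT) against 36.2, 40.9 and 41.7 CPM (bravo-2). The mutant libraries were tight and all lay under the WT ones, by a small step (log2 fold change -0.58, SE 0.39, unadjusted p = 0.172 and adjusted p = 1.0 by edgeR; exact permutation p = 0.1). Without bravo-2 replicate 1 it was -0.53. XTH9 measured 29.2, 67.5 and 63.3 CPM (WT) against 65.4, 18.6 and 16.2 CPM (bravo-2). XTH9 was high in WT replicates 2 and 3 and bravo-2 replicate 1, the same libraries in which WOX5 was high (261, 372 and 444 CPM), and low where WOX5 was low (80.3, 120 and 96.5 CPM). The QC marker list, 5 genes with WOX5 and BRAVO among them, summed to 198, 557 and 698 CPM (WT) against 901, 273 and 192 CPM (bravo-2). The log2 fold change of XTH9 was -0.68 (SE 0.65), and without bravo-2 replicate 1 it was -1.62 (SE 0.54, adjusted p = 1.0 by edgeR), the mutant pair then both lying under all WT libraries. Whether the QC share of the sort entered this value was not tested.

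The other 2 group I members spread widely within genotypes. XTH5 (AT5G13870) measured 30.1, 77.1 and 41.2 CPM (WT) against 51.4, 132 and 21.3 CPM (bravo-2), and its log2 fold change of 0.46 (SE 0.70) was 0.63 without bravo-2 replicate 1 and turned to -0.45 without bravo-2 replicate 2. XTH8 (AT1G11545) measured 182, 54.1 and 42.6 CPM (WT) against 11.8, 113 and 114 CPM (bravo-2). Its log2 fold change of -0.22 (SE 0.90) turned to 0.29 without bravo-2 replicate 1 and to 0.75 without WT replicate 1. For neither gene could a direction be read from these libraries.

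Group IIIB held 4 tested members, with a median of -0.72. XTH27 (EXGT-A3), known from the development of tracheary elements in leaf veins, measured 38.2, 33.1 and 28.8 CPM (WT) against 16.8, 19.5 and 23.0 CPM (bravo-2). It was the steadiest member: its dispersion stood at the 1.99th percentile of all genes tested, and leaving out any 1 library kept its log2 fold change between -0.88 and -0.62. The log2 fold change was -0.76 (SE 0.37, unadjusted p = 0.0759 and adjusted p = 1.0 by edgeR; exact permutation p = 0.1), and -0.66 (SE 0.46) without bravo-2 replicate 1. The 7 xylem markers summed to 53.9, 33.5 and 26.5 CPM (WT) against 11.8, 21.3 and 33.2 CPM (bravo-2), with ranges that overlapped, unlike those of XTH27. Up to 3 of the 7 were at or under 3 counts in a library. Of all marker lists, only the 4 root cap genes had every WT sum above every bravo-2 sum. They summed to 139, 88.1 and 72.9 CPM (WT) against 58.2, 45.2 and 63.3 CPM (bravo-2). This held for the sum only, as the genotypes overlapped in each of the 4 genes (SMB, BRN1, BRN2 and BFN1). BFN1, which was near the floor, had the higher mean in bravo-2 (1.26 CPM, against 0.958 CPM in WT). The part of root cap cells in the XTH levels was not tested.

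XTH28 (AT1G14720), the closest relative of XTH27 with 78.1% identity in coding sequence, measured 20, 34.1 and 21.0 CPM (WT) against 49.7, 31.8 and 18.9 CPM (bravo-2). It was highest in bravo-2 replicate 1, and its log2 fold change of 0.42 (SE 0.48) was 0.02 without that library. XTH30 measured 82.3, 17.0 and 19.5 CPM (WT) against 10.3, 10.4 and 53.5 CPM (bravo-2) (log2 fold change -0.68, SE 0.89; -0.32 without bravo-2 replicate 1 and 0.47 without WT replicate 1). XTH33 (AT1G10550), which carries a membrane anchor, measured 11.8, 9.60 and 3.35 CPM (WT) against 1.29, 0.168 and 10.7 CPM (bravo-2) (log2 fold change -1.03, SE 1.25; -0.61 without bravo-2 replicate 1), the lowest value being 2 counts. The genotypes overlapped in all 3.

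The first principal component of the residuals, the main axis along which libraries of 1 genotype differed, held 78.7% of the residual variance, with bravo-2 replicate 1 (-0.68) and bravo-2 replicate 3 (0.62) at its ends. Fitted as a covariate in limma on log2(CPM + 1), it left 5 members with an adjusted p under 0.05, all lower in bravo-2, where 1.35% of all genes tested were called lower. These were XTH12 (-3.36, adjusted p = 0.0446), XTH13 (-3.32, adjusted p = 0.0280), XTH17 (-1.89, adjusted p = 0.0280), XTH18 (-1.79, adjusted p = 0.0446) and XTH21 (-2.16, adjusted p = 0.0467). The covariate was computed from the same residuals that the test divides by, so these p-values may be too small, and no member was called without it.

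The genes that build and trim xyloglucan were looked at beside the enzymes that remodel it; the lists were not tested against each other. Of a list of 20, 19 were tested, 12 with a negative and 6 with a positive log2 fold change and FUT1 at -0.00, with a median of -0.25, where 45.7% of all genes tested were lower. Without bravo-2 replicate 1 there were 10 lower and 8 higher, with a median of -0.01, against 0 over all genes in that fit. By edgeR 0 of the 19 had an adjusted p under 0.05 and 0 an unadjusted p under 0.05, a level reached by 0.794% of all genes tested in either direction. In 0 of the 19 were the genotypes free of overlap, as they were in 3.67% of all genes tested, so at this list size neither count stands out from the whole table. The most abundant glucan synthase was CSLC6 (AT3G07330), at 470, 233 and 259 CPM (WT) against 77.1, 252 and 388 CPM (bravo-2). The most abundant xylosyltransferase, XXT2 (AT4G02500), measured 312, 131 and 127 CPM (WT) against 75.2, 240 and 266 CPM (bravo-2). Both were lowest in bravo-2 replicate 1, as most XTH genes were, and their log2 fold changes were -0.42 (SE 0.67) and 0.03 (SE 0.65), or -0.00 and 0.41 without that library.

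XYL1 (AT1G68560), the alpha-xylosidase that trims secreted xyloglucan and the most abundant of the trimming enzymes, was highest in bravo-2 replicate 1 and low in WT replicate 1 and bravo-2 replicate 3. It measured 83.6, 318 and 257 CPM (WT) against 360, 299 and 59.4 CPM (bravo-2) (log2 fold change 0.13, SE 0.78; -0.29 without bravo-2 replicate 1). XUT1 (AT1G63450), which adds galacturonic acid to root hair xyloglucan and was named after its values were seen, had the lowest log2 fold change of the list, -1.50 (SE 1.09), which was -0.94 (SE 0.59) without bravo-2 replicate 1. It measured 276, 128 and 195 CPM (WT) against 3.00, 60.6 and 149 CPM (bravo-2), with bravo-2 replicate 3 inside the WT range. TBL22, listed with the acetyltransferases, was not tested, with at most 0.571 CPM.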

How the data were processed

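GFP-sorted root cells of 3 WT and 3 bravo-2 samples were compared, grouped by the genotype in the labels; wox5-1 is not analysed here. The authors trimmed reads with cutadapt, mapped them to TAIR10 with STAR and quantified Araport11 genes with RSEM (versions are not given in the sources used here). They deposited, per library, RSEM's estimated count (expected count) and TPM of each gene, before their own bias and batch correction (NOISeq, ARSyN) and test, which were not repeated here. TPM adds to the same total in each library and keeps no depth, so it served only for levels between genes. RSEM shares reads between similar copies, and SMART-Seq amplification leaves reads that are not independent molecules, so floors cover counting error only.

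Estimated counts were rounded, and the 15739 of 37336 genes whose mean reached 4 CPM (before the TMM correction) in either genotype were kept. On these, bravo-2 was compared with WT by edgeR 4.0.16 (R 4.3.3; TMM, glmQLFit, glmQLFTest), with Benjamini-Hochberg adjustment and a threshold of 0.05. The fit was tested on simulated data. Single genes were also put to a two-sided exact permutation test of log2(CPM + 1), written in Python 3.11.15 with numpy 2.4.6. Alternatives were DESeq2 1.42.0, upper quartile scaling, 2 other filters, limma 3.58.1 without and with the first residual component, the replicate number as a block, and each library left out; the overlap count without bravo-2 replicate 1 was added after seeing the data.

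The members and the gene lists were chosen with earlier results of these data known. Every tested member is given in each library; members with groups that do not overlap or an unadjusted p under 0.05 have full statistics. From the xyloglucan list, the most abundant synthase, xylosyltransferase and trimming enzyme were named, abundance being the mean WT TPM. Marker lists are given as sums. The sums of 3 further lists overlapped between genotypes. The non-hair epidermis list summed to 69.5, 19.2 and 53.7 CPM (WT) against 4.79, 60.7 and 48.0 CPM (bravo-2). For the endodermis list the sums were 185, 8.42 and 181 CPM (WT) against 9.43, 16.6 and 169 CPM (bravo-2). Those of the phloem list were 17.8, 4.8 and 5.76 CPM (WT) against 12.8, 13.9 and 13.5 CPM (bravo-2). Sequences, coordinates and exons are from RefSeq's TAIR10.1 annotation, matched by gene identifier for 33 of 33; the deposited tables hold no coordinates.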

Additional observations from a re-analysis of the deposited data

How the results depend on the processing

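The 20 tested members had 255 log2 fold changes under the alternatives, of which 241 kept their direction and their side of the threshold, 5 passed it (the residual component as a covariate) and 9 turned. Those that turned (XTH19 to a value that rounds to 0) did so when a library was left out, and the ranges were -0.45 to 0.94 for XTH5, -0.60 to 0.75 for XTH8, -1.92 to 0.22 for XTH15, -1.60 to 0.00 for XTH19, -0.49 to 0.27 for XTH22 and -1.96 to 0.47 for XTH30. The number of genes called over the whole table was 0 with edgeR, 13 with DESeq2, 1 with all genes that had a count, and 218 with the residual component in limma, and 125 genes had an unadjusted p under 0.05 in edgeR and 195 in DESeq2. The number of XTH genes called was 0 in all of these except the last, where it was 5. The median over the XTH genes tested ran from -2.04 (without bravo-2 replicate 3) to -0.32 (without bravo-2 replicate 1), and the count with every WT library above the mutants was 6, or 7 without bravo-2 replicate 1. With the replicate block the XTH median was -1.22 and 0 genes were called, with 52 at an unadjusted p under 0.05 by edgeR. Libraries with the same number did not deviate together from their genotype means (correlations of -0.72, -0.07 and -0.43), so the numbers were not taken as a pairing. Other codes in the sample titles were not examined as batches. The paper found sorting to be a confounded factor and corrected for it with ARSyN, so shared batches remain possible. Dividing the counts by effective length gave the deposited TPM again, so this was no independent alternative. The median log2(CPM + 1) over the tested members was taken in each library. Its pooled SD between libraries of a genotype was 0.96, and 3 libraries a genotype limit what can be called. The cause of these changes was not tested.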
